A study of Mus musculus with 15 samples.

Results

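Feedback inhibitors of mitogen-activated protein kinase (MAPK) signalling were followed by RNA-seq through the differentiation of mouse B cells. The set holds 10 genes, taken by symbol from the 21669 genes with a symbol in the deposited table. They are 6 dual-specificity phosphatase genes (*Dusp1*, *Dusp2*, *Dusp4*, *Dusp5*, *Dusp6* and *Dusp10*), 2 Sprouty genes (*Spry1* and *Spry2*) and 2 Spred genes (*Spred1* and *Spred2*). All 10 are in the table, and 9 of them were among the 11299 genes tested; *Spry1* was expressed too low and is described by its reads.

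All cells came from wild-type female C57BL/6J mice 6 to 9 weeks old. Naive CD43- splenic B cells (nB) had received neither stimulus nor drug. CD138+ plasmablasts (Pb) and B220+GL7+CD138- activated B cells (actB) were sorted after 3 days of culture with LPS, Il2 and Il5, with either DMSO as the vehicle or 2 μM GSK343. GSK343 inhibits EZH2, the methyltransferase that places the repressive H3K27me3 mark. Because actB and Pb were sorted after the same 3 days, a rise or fall between them is a difference between groups and was not followed in time. Each of the 5 groups had 3 libraries. For Pb with GSK343 the stimulation label names Il6 in place of Il5, while the treatment protocol of the same samples and the methods of the study give Il5. If that label holds, the drug and this cytokine cannot be told apart in Pb. Replicates 1 and 2 of nB, whose reads differed by less than sampling noise, were counted as 1 library, which left n = 2 for nB and n = 3 for every other group. Libraries held 19421830 to 26307413 reads, and 3 reads, the limit that a count of 0 allows, equal 0.114 to 0.1545 RPM (reads per 1000000 reads counted; counting error only). The study describes its replicates as biological, but p-values measure only the spread between these libraries.

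MAPK cascades carry signals from antigen and Toll-like receptors through ERK, JNK and p38 kinases, which are switched on by phosphorylation of a threonine and a tyrosine. Dual-specificity phosphatases remove both phosphates, and many of their genes are themselves induced by the kinases that they switch off. Sprouty and Spred proteins act upstream, where they limit the activation of RAS and RAF. In B cells these cascades shape activation, proliferation and the response to antigen, so that the inhibitors set how long a signal lasts.

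Sorted identities were read from markers. *Pax5*, a factor of B cell identity, was 321 ± 21.9 RPKM (RPM per kilobase of gene length; SD, n = 2) in nB and 192 ± 6.55 (n = 3) in actB with DMSO. *Mki67*, a marker of cycling cells, was 8.31 ± 2.57 RPKM in nB, 183 ± 20.9 in actB and 281 ± 12.6 in Pb with DMSO. *Sdc1*, which encodes CD138, was 0.665 ± 0.121 RPKM in actB and 29.7 ± 0.826 in Pb. The nB libraries also held RNA of other spleen cells: 8 myeloid genes summed to 314 to 420 RPM, 10 T and NK cell genes to 122 to 130 RPM, and 3 erythroid genes to 77.1 to 276 RPM, with every one of these markers above 1 RPKM on average. In the cultured DMSO libraries the same sums were 1.78 to 32.0, 4.90 to 14.8 and 0.577 to 7.80 RPM. Their part in the differences from nB was not tested.

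Promoters of *Dusp1* and *Dusp5* are shown because these genes were lower in actB than in nB and higher in Pb than in actB. Those of *Dusp2* and *Dusp6* are shown because they were lower than in nB in both actB and Pb. RefSeq promoter windows (GRCm38.p6) were found for 9 of the 10 genes, all but *Dusp4*. Each sequence holds the 250 bases before the start site, 5′ to 3′ on the strand of the gene, with capitals for the motifs found. *Dusp1* lies on the minus strand at chr17:26508473-26508722, *Dusp5* on the plus strand at chr19:53528895-53529144, *Dusp2* on the plus strand at chr2:127335909-127336158, and *Dusp6* on the plus strand at chr10:99262981-99263230.
Dusp1: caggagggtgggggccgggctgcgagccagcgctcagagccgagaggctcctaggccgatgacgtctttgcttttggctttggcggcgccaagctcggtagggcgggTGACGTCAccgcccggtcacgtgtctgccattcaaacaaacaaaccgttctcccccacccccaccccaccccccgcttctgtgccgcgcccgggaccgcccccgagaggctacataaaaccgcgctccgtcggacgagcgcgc
Dusp5: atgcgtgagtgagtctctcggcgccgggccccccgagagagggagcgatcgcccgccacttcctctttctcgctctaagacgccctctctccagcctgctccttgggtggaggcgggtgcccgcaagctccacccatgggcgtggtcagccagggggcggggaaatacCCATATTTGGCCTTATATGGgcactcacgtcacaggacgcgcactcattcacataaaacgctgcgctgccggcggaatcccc
Dusp2: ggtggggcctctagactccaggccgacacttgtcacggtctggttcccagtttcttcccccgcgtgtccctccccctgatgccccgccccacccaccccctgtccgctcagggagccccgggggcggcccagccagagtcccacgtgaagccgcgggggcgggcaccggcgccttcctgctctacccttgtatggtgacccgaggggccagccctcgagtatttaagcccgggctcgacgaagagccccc
Dusp6: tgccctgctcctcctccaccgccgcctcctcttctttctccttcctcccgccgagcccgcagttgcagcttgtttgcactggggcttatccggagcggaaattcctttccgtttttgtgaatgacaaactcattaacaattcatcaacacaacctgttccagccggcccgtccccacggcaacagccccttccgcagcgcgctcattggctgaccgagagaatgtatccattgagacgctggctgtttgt

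Motifs were searched on both strands of these 250 bases in the 9 genes and in all 32851 promoter windows. The full cAMP response element TGACGTCA was found in *Dusp1*, 143 bases upstream of the start, and in 1.55% of all windows. A CArG box, the site of serum response factor, was found at 2 adjoining positions in *Dusp5*, 82 and 72 bases upstream, and in 1.47% of all windows. No match was found in the 9 genes for the AP-1 site TGANTCA, which 6.75% of all windows held or for TATAAA, which 12.4% held. A match describes these letters and is not a measured binding site.

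Those phosphatase genes that were most abundant in naive cells were lower in activated cells. The nB cells were purified with magnetic beads and not cultured, while actB were cultured and sorted by flow cytometry. Activation, time in culture and handling thus cannot be told apart in any comparison with nB. Of the 9 genes tested, 5 were lower in actB with DMSO (*Dusp1*, *Dusp2*, *Dusp6*, *Dusp10* and *Dusp5*) and 3 were higher (*Dusp4*, *Spred1* and *Spred2*), by limma at an adjusted p under 0.05. Of all genes tested 77.2% were called in this comparison, 36.3% lower and 40.9% higher, so that a change as such was common. The median log2 fold change of the 9 genes was -1.39, and that of all genes was 0.053. Fold changes are those of RPKM + 0.25, are given with ± their standard error on the log2 scale, and come from 1 limma fit across all genes; the 3 comparisons among nB, actB and Pb share libraries with each other. In these bulk samples fewer cells of a type and less RNA per cell cannot be told apart. RPKM is also a share of a library. The study describes a growth of RNA content as B cells differentiate, so a lower share need not mean fewer transcripts per cell.

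*Dusp1*, an immediate-early gene whose nuclear product acts on p38, JNK and ERK, fell the furthest. Its level was 107 and 100.3 RPKM in the nB libraries, and 3.79, 4.80 and 3.27 RPKM in actB with DMSO. In Pb with DMSO it was 16.8, 19.1 and 19.7 RPKM. The groups were far apart, with Pb between nB and actB. The gene (Entrez 19252, chromosome 17 of mm9 from 26642535 to 26645464, minus strand) was 25-fold lower in actB than in nB (log2 fold change -4.65 ± 0.126, adjusted p = 8.55e-12). It was 4.51-fold higher in Pb than in actB (log2 fold change 2.17 ± 0.113, adjusted p = 4.48e-09) and still 5.55-fold lower than in nB (adjusted p = 1.17e-09).

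*Dusp2* encodes a nuclear phosphatase found mainly in activated lymphocytes and other immune cells. It was the member with the highest level in nB, at 152 and 142 RPKM. The actB libraries with DMSO held 14.4, 14.02 and 16.2 RPKM, and the Pb libraries 10.4, 13.9 and 13.7 RPKM. Both cultured groups lay far below nB, and Pb lay just below actB. *Dusp2* (Entrez 13537, chromosome 2 of mm9 from 127161895 to 127164112, plus strand) was 9.74-fold lower in actB (log2 fold change -3.28 ± 0.145, adjusted p = 5.66e-10) and 11.5-fold lower in Pb (adjusted p = 1.54e-10) than in nB. Between Pb and actB the log2 fold change was -0.23 (95% confidence interval -0.516 to 0.0478, adjusted p = 0.126).

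*Dusp6*, whose product holds and dephosphorylates ERK in the cytoplasm, gave 43.3 and 43.2 RPKM in nB. It gave 4.91, 5.60 and 5.50 RPKM in actB with DMSO and 4.91, 4.30 and 5.05 RPKM in Pb with DMSO. The cultured groups overlapped each other and not nB. *Dusp6* (Entrez 67603, chromosome 10 of mm9 from 98725865 to 98730122, plus strand) was 7.80-fold lower in actB than in nB (log2 fold change -2.96 ± 0.115, adjusted p = 1.85e-10) and 8.71-fold lower in Pb (adjusted p = 5.74e-11). The difference between Pb and actB was -0.16 on the log2 scale (95% confidence interval -0.384 to 0.065, adjusted p = 0.186).

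*Dusp5*, a nuclear phosphatase for ERK, had an nB level of 21.9 and 16.0 RPKM. In actB with DMSO it was at 6.51, 8.51 and 6.24 RPKM, and in Pb with DMSO at 14.3, 17.3 and 15.7 RPKM. Plasmablasts overlapped nB, and actB lay below both. *Dusp5* (Entrez 240672, chromosome 19 of mm9 from 53603599 to 53616921, plus strand) was 2.61-fold lower in actB than in nB (log2 fold change -1.39 ± 0.195, adjusted p = 2.89e-05) and 2.19-fold higher in Pb than in actB (log2 fold change 1.13 ± 0.174, adjusted p = 8.20e-05). Pb and nB differed by -0.25 (95% confidence interval -0.675 to 0.172, adjusted p = 0.249). The deposited length of *Dusp5*, 1155 bases, is 46.7% of its exons in the mm9 annotation used here, which bears on its level beside other genes and not on its fold changes.

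*Dusp4*, a nuclear phosphatase that is induced by ERK, went the other way. Its level was 15.7 and 13.3 RPKM in nB, 21.4, 23.6 and 22.0 RPKM in actB with DMSO, and 56.0, 55.7 and 62.5 RPKM in Pb with DMSO. Every actB library lay above every nB library, and every Pb library lay above every actB library. *Dusp4* (Entrez 319520, chromosome 8 of mm9 from 35870351 to 35882948, plus strand) rose 1.54-fold from nB to actB (log2 fold change 0.62 ± 0.0907, adjusted p = 4.13e-05) and 2.58-fold from actB to Pb (log2 fold change 1.37 ± 0.0812, adjusted p = 1.47e-08). From nB to Pb the rise was 3.97-fold (adjusted p = 4.04e-10), and *Dusp4* was the single member called higher in Pb than in nB.

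*Dusp10*, whose product prefers JNK and p38 over ERK, was lower in actB than in nB and lower again in Pb. It gave 13.2 and 12.6 RPKM in nB, 5.03, 3.62 and 4.71 RPKM in actB with DMSO, and 1.42, 1.77 and 1.74 RPKM in Pb with DMSO. No groups overlapped. *Dusp10* (Entrez 63953, chromosome 1 of mm9 from 185837181 to 185899515, plus strand) was 2.82-fold lower in actB than in nB (log2 fold change -1.495 ± 0.172, adjusted p = 4.88e-06), 2.47-fold lower in Pb than in actB (log2 fold change -1.31 ± 0.154, adjusted p = 8.14e-06), and 6.97-fold lower in Pb than in nB (adjusted p = 7.56e-09). A gene on the other strand, *1700056E22Rik*, overlaps its span but none of its exons.

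**Figure D1:**
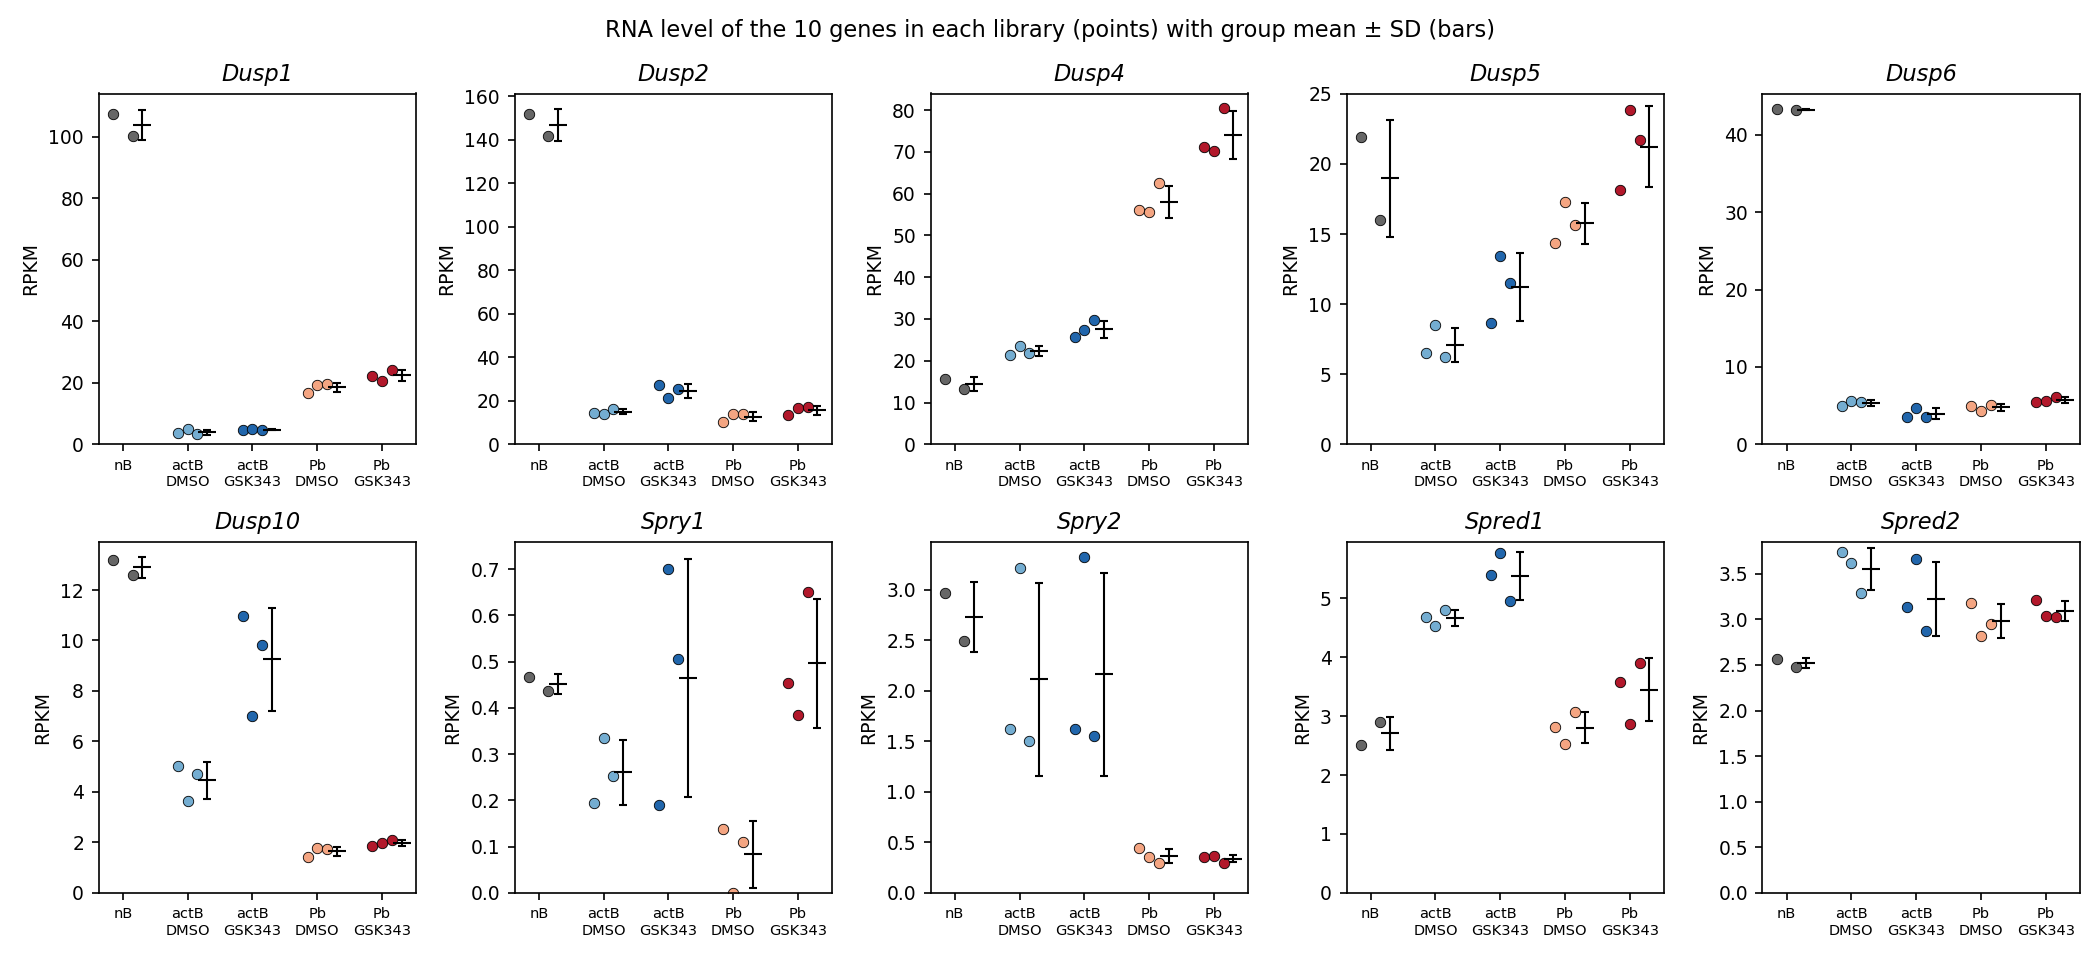
RNA level in RPKM (vertical axis, from 0, a scale for each gene) of the 10 genes in every library (points), with the mean and SD of each group (bars); n is 2 in nB and 3 in each cultured group. By group mean *Dusp1*, *Dusp2*, *Dusp6*, *Dusp10* and *Spry2* were highest in nB. *Dusp4*, *Dusp5* and *Spry1* were highest in Pb with GSK343, and *Spry1* stayed under 0.700 RPKM.

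Summed over the 6 phosphatase genes, the level was 340.2 ± 18.5 RPKM (SD, n = 2) in nB, 58.0 ± 2.02 (n = 3) in actB with DMSO and 111 ± 7.22 (n = 3) in Pb with DMSO. The makeup of the sum changed as well. *Dusp1*, *Dusp2* and *Dusp6* together made up 85.6% to 87.2% of it in nB, 40.6% to 43.1% in actB and 30.9% to 33.3% in Pb. The share of *Dusp4* went from 4.05% to 4.44% in nB to 37.99% to 39.2% in actB and 49.7% to 53.9% in Pb. These sums and shares are a description, with no test.

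**Figure D2:**
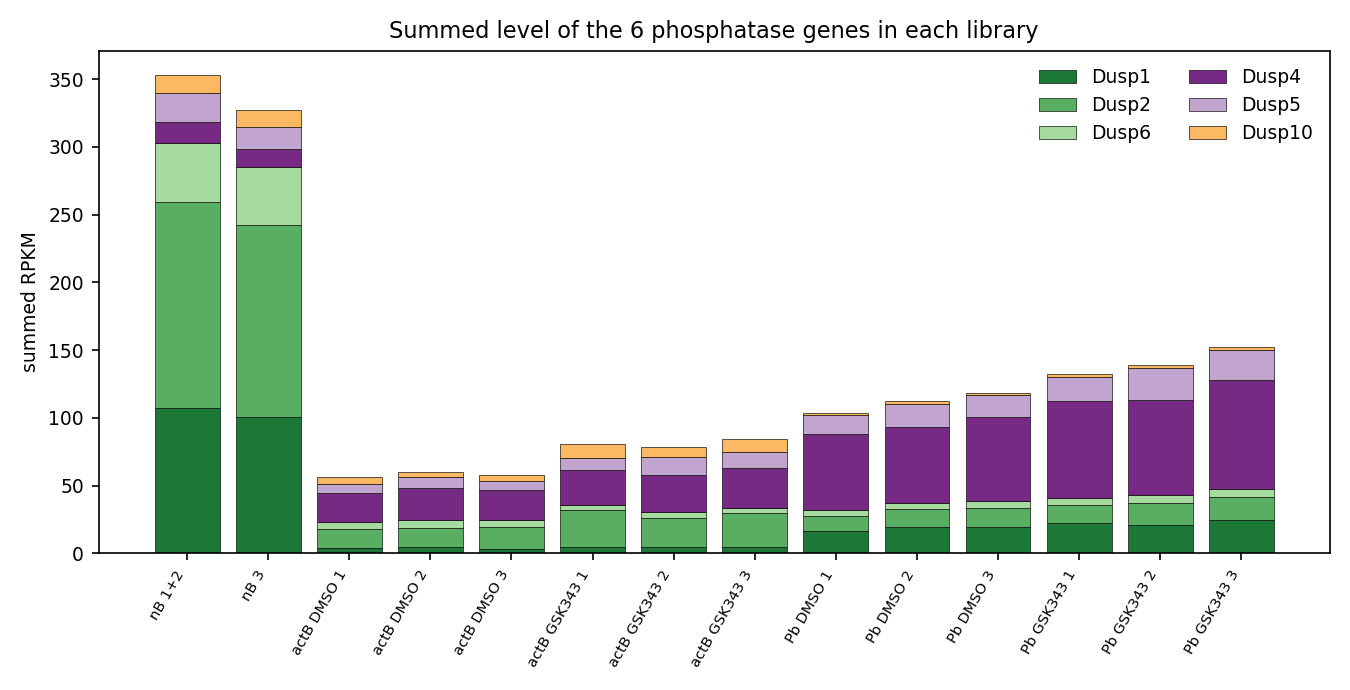
Summed RPKM of the 6 phosphatase genes in each of the 14 libraries (stacked bars from 0, a colour for each gene; nB replicates 1 and 2 are 1 bar). The bars reach 327 to 353 RPKM in nB, mostly *Dusp1*, *Dusp2* and *Dusp6*, and 104 to 118 RPKM in Pb with DMSO, where *Dusp4* is the largest piece.

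Sprouty genes were low throughout. *Spry2*, an inhibitor of ERK activation by receptor tyrosine kinases, gave 2.97 and 2.49 RPKM in nB and 1.62, 3.22 and 1.501 RPKM in actB with DMSO. In Pb with DMSO it gave 0.444, 0.352 and 0.299 RPKM, from 13 to 18 reads. The actB libraries were uneven, with replicate 2 at about the nB level, and Pb lay below all of them. *Spry2* (Entrez 24064, chromosome 14 of mm9 from 106291166 to 106296036, minus strand) was 3.67-fold lower in Pb than in actB (log2 fold change -1.88 ± 0.277, adjusted p = 5.92e-05) and 4.86-fold lower than in nB (adjusted p = 1.77e-05). At so few reads the size depends on the method: the log2 fold changes were -1.15 and -1.45 at a pseudocount of 1, and -2.47 and -2.89 by edgeR, called in each. Between actB and nB the log2 fold change was -0.40 (95% confidence interval -1.08 to 0.271, adjusted p = 0.25). Without actB replicate 2 it was -0.72 with an adjusted p of 0.0281, so that this library decides the call. *Spry2* passed the filter on low values in 9 of the 15 deposited columns, all of them nB or actB.

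*Spry1* (Entrez 24063, chromosome 3 of mm9 from 37538869 to 37543520, plus strand) reached 1 RPKM in none of the 15 columns. It had 28 and 26 reads in nB, 12, 21 and 16 in actB with DMSO, and 7, 0 and 6 in Pb with DMSO. The Pb libraries were the lowest. With no filter on low values, limma gave a log2 fold change of -1.10 in Pb against nB (adjusted p = 0.00621), -0.63 in Pb against actB (adjusted p = 0.0699) and -0.47 in actB against nB (adjusted p = 0.185). At so few reads the size of a fitted change depends on the pseudocount.

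Spred proteins bring neurofibromin, a RAS inactivator, to the membrane. *Spred1* was at 2.51 and 2.91 RPKM in nB, at 4.68, 4.52 and 4.80 RPKM in actB with DMSO, and at 2.82, 2.53 and 3.06 RPKM in Pb with DMSO. Levels in actB stood above both other groups, which overlapped. *Spred1* (Entrez 114715, chromosome 2 of mm9 from 116947110 to 117008015, plus strand) rose 1.67-fold in actB (log2 fold change 0.74 ± 0.121, adjusted p = 1.15e-04) and was 1.61-fold lower in Pb than in actB (log2 fold change -0.69 ± 0.109, adjusted p = 9.95e-05). In Pb against nB its log2 fold change was 0.045 (95% confidence interval -0.219 to 0.31, adjusted p = 0.739).

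The other Spred gene moved less. *Spred2* gave 2.56 and 2.48 RPKM in nB, 3.74, 3.62 and 3.29 RPKM in actB with DMSO, and 3.19, 2.82 and 2.95 RPKM in Pb with DMSO. All actB and Pb libraries lay above nB, and Pb lay below actB. *Spred2* (Entrez 114716, chromosome 11 of mm9 from 19824378 to 19924029, plus strand) was 1.37-fold higher in actB than in nB (log2 fold change 0.45 ± 0.0981, adjusted p = 9.95e-04). It was 1.17-fold lower in Pb than in actB (log2 fold change -0.23 ± 0.0878, adjusted p = 0.0319). That last call was lost with median scaling (adjusted p = 0.237) and with edgeR (adjusted p = 0.0945), and without actB replicate 1 (adjusted p = 0.106) or 2 (adjusted p = 0.0749) or Pb replicate 2 (adjusted p = 0.105) or 3 (adjusted p = 0.0708). In Pb against nB the log2 fold change was 0.22 (adjusted p = 0.0531), and it was called by edgeR (adjusted p = 0.0419), with median scaling (0.0262) and without Pb replicate 2 (0.0451).

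Between Pb and actB with DMSO, 7 of the 9 genes tested were thus called, 3 higher in Pb (*Dusp1*, *Dusp4* and *Dusp5*) and 4 lower (*Dusp10*, *Spry2*, *Spred1* and *Spred2*). Of these, *Spry2* passed the filter only through nB and actB columns, which favours a lower level in Pb, and the call of *Spred2* was lost under several settings. Over all genes 69.7% were called, 27.3% higher and 42.4% lower. The median log2 fold change was -0.232 for the 9 genes and -0.116 for all genes, so that a level equal to actB lies slightly above the median gene. Between Pb and nB, 6 of the 9 were called, *Dusp4* higher and 5 lower, where 80.6% of all genes were called, 39.5% higher and 41.1% lower. The median was -2.28 for the 9 genes and -0.0224 for all.

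**Figure D3:**
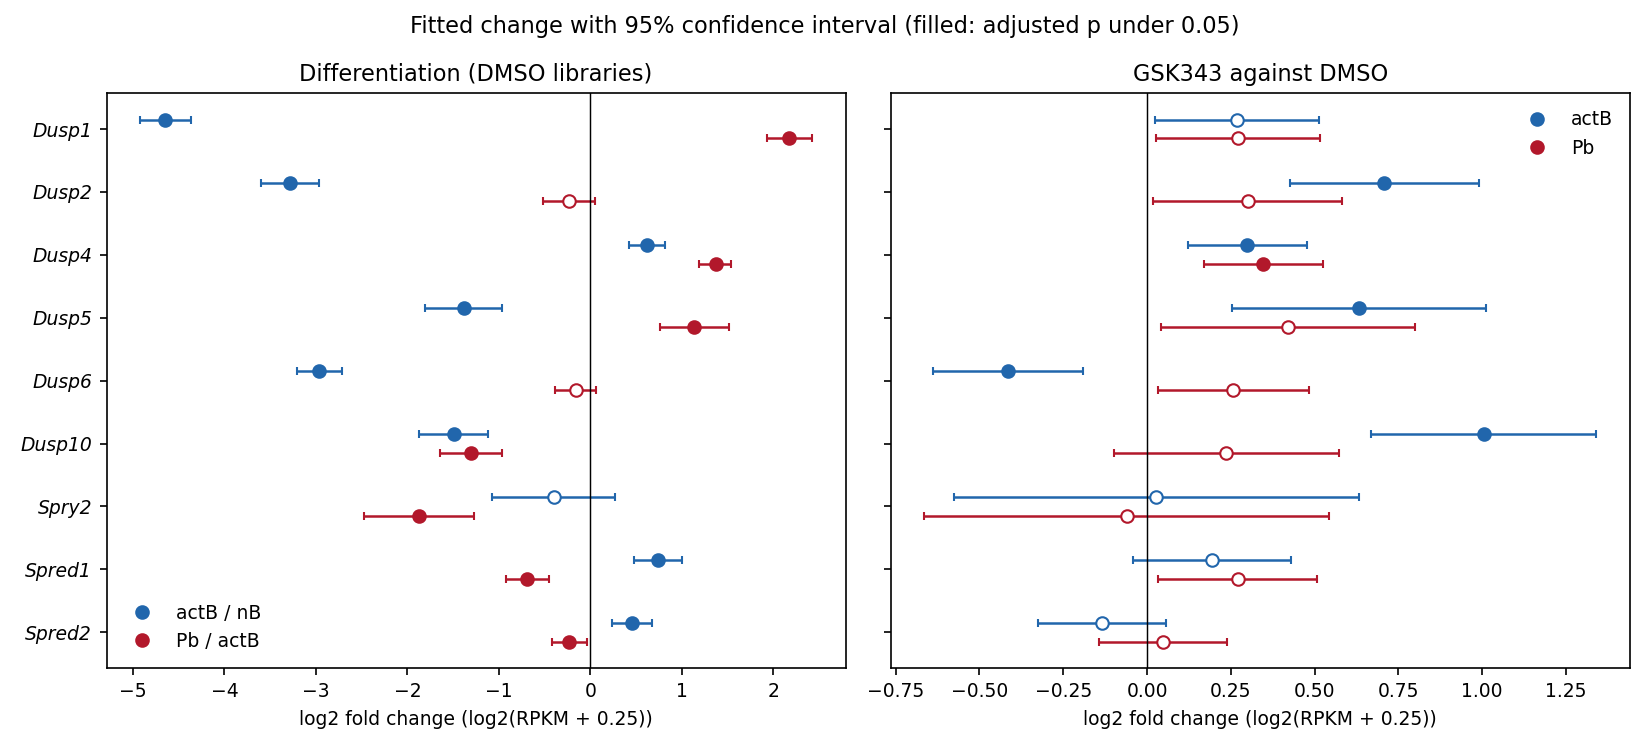
Fitted log2 fold change of RPKM + 0.25 (horizontal axis) with its 95% confidence interval for the 9 genes tested; filled points passed an adjusted p of 0.05. On the left, actB against nB (blue) and Pb against actB (red), both with DMSO; on the right, GSK343 against DMSO in actB (blue) and in Pb (red). *Dusp1* and *Dusp5* lie left of 0 for actB against nB and right of 0 for Pb against actB, and *Dusp6* lies left of 0 for the drug in actB and right of 0 in Pb.

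Other genes of the pathway were described from lists written from general knowledge. Of 18 immediate-early and ERK-responsive genes tested, 13 were lower and 2 higher in actB than in nB, with a median log2 fold change of -2.09. Over all genes 36.3% were lower and 40.9% higher, with a median of 0.053. *Fos* and *Fosb*, which encode partners of JUN in AP-1, went from 308 ± 0.574 and 144 ± 7.67 RPKM (SD, n = 2) in nB to 0.563 ± 0.0957 and 0.0737 ± 0.0109 RPKM (n = 3) in actB. *Fos* was at 3.65 ± 0.363 RPKM in Pb with DMSO, a log2 fold change of 2.26 over actB (adjusted p = 2.61e-08), and *Phlda1*, which is induced by ERK, rose from 2.32 ± 0.484 to 14.02 ± 1.25 RPKM (log2 fold change 2.49, adjusted p = 4.51e-09). In Pb against actB, 8 of the 18 were higher and 6 lower, where 27.3% and 42.4% of all genes were. The *Dusp1* level was thus high in the same nB libraries as *Fos* and *Fosb*, and what these levels share was not tested.

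Some genes of the kinases that these phosphatases act on were lower in actB than in nB and lower again in Pb. *Mapk3*, which encodes an ERK kinase, fell from 29.0 ± 0.638 RPKM (SD, n = 2) in nB to 22.1 ± 0.980 (n = 3) in actB and 11.5 ± 0.318 in Pb with DMSO. *Mapk14*, which encodes p38α, fell from 50.9 ± 3.12 to 31.2 ± 2.74 and 17.7 ± 1.201 RPKM. The JNK gene *Mapk8* was at 3.56 ± 0.0695, 3.30 ± 0.375 and 4.19 ± 0.422 RPKM, and *Mapk9* at 8.75 ± 0.472, 9.35 ± 0.625 and 5.76 ± 0.278 RPKM. Of 22 genes of the RAS-ERK cascade 12 were lower and 6 higher in actB than in nB (median log2 fold change -0.143), and of 15 genes of the JNK and p38 cascades 10 were lower and 2 higher (median -0.300), beside 36.3% lower and 40.9% higher over all genes. In Pb against actB, 9 of the 22 were lower and 7 higher, and 8 of the 15 were lower and 4 higher, beside 42.4% lower and 27.3% higher over all genes.

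The widest moves upstream of ERK were those of *Rasgrp2*, an exchange factor for small GTPases, and *Ksr1*, a scaffold for RAF, MEK and ERK. *Rasgrp2* fell from 111 ± 2.97 RPKM (SD, n = 2) in nB to 28.2 ± 0.502 (n = 3) in actB and 4.27 ± 0.483 in Pb with DMSO. *Ksr1* rose from 4.08 ± 0.499 to 16.6 ± 1.29 RPKM in actB and was at 3.36 ± 0.523 in Pb, so that, as for *Spred1*, its level was highest in actB. In the p38 arm *Mapk11* fell from 54.8 ± 0.255 to 14.8 ± 0.219 and 4.23 ± 0.449 RPKM.

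Of the remaining MAPK phosphatases, *Dusp7*, whose product acts on ERK in the cytoplasm, followed *Dusp1* and *Dusp5* in its order of levels, with 21.5 ± 1.03 RPKM (SD, n = 2) in nB, 8.44 ± 1.14 (n = 3) in actB and 12.6 ± 0.673 in Pb. Its log2 fold change was -1.33 from nB to actB (adjusted p = 3.76e-08) and 0.57 from actB to Pb (adjusted p = 4.80e-05). *Dusp16*, for JNK and p38, was 0.41 lower on the log2 scale in actB than in nB, at 3.87 ± 0.503 and 5.23 ± 0.777 RPKM (adjusted p = 0.00707). *Dusp8* and *Dusp9* did not pass the filter. Among 8 atypical dual-specificity phosphatases, *Dusp14* rose from 0.0661 ± 0.0185 RPKM in nB to 3.64 ± 0.493 in actB (adjusted p = 6.47e-11) and further to 20.1 ± 1.06 in Pb (adjusted p = 1.84e-09), which was the widest rise of the list.

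GSK343 moved several of the phosphatase genes in activated cells. Of the 9 genes tested, 4 were higher with GSK343 in actB (*Dusp10*, *Dusp2*, *Dusp5* and *Dusp4*) and *Dusp6* was lower. Of all genes 10.4% were called in this comparison, 8.20% higher and 2.16% lower. Every GSK343 library lay above every DMSO library for 5 of the 9 genes (18.3% of all genes) and below for 1 (7.52%). The median log2 fold change was 0.268 for the 9 genes and 0.0284 for all genes.

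*Dusp10* changed the most with the drug in actB. Its levels with GSK343 were 10.97, 6.999 and 9.82 RPKM, against 5.03, 3.62 and 4.71 RPKM with DMSO. Within each replicate number the GSK343 library was higher, and replicate 2 was the lowest of both treatments. The rise was 2.01-fold (log2 fold change 1.004 ± 0.154, adjusted p = 0.00213), and it was called under every setting tried, with adjusted p from 6.05e-04 to 0.0129 over the libraries left out in turn. With GSK343 the level in actB, 9.26 ± 2.05 RPKM (SD, n = 3), was below that of nB, 12.9 ± 0.408 RPKM (n = 2).

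*Dusp2* came next, at 27.4, 21.1 and 25.2 RPKM with GSK343 against 14.4, 14.02 and 16.2 RPKM with DMSO. The groups did not overlap. The rise was 1.63-fold (log2 fold change 0.71 ± 0.130, adjusted p = 0.00525), also called under every setting tried, and left *Dusp2* well under its nB level of 147 ± 7.21 RPKM (SD, n = 2).

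*Dusp5* was at 8.62, 13.4 and 11.5 RPKM with GSK343 against 6.51, 8.51 and 6.24 RPKM with DMSO in actB. The lowest GSK343 library lay just above the highest DMSO library. The rise was 1.55-fold (log2 fold change 0.63 ± 0.174, adjusted p = 0.0385; adjusted p = 0.00183 with the replicate number as a block). *Dusp4* was at 25.7, 27.3 and 29.7 RPKM against 21.4, 23.6 and 22.0 RPKM, a rise of 1.23-fold (log2 fold change 0.30 ± 0.0812, adjusted p = 0.036; 0.006 with the block). Both calls were lost without DMSO replicate 1 (adjusted p = 0.124 for *Dusp5* and 0.121 for *Dusp4*), DMSO replicate 3 (0.129 and 0.104), GSK343 replicate 2 (0.104 and 0.0609) or GSK343 replicate 3 (0.117 and 0.14).

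*Dusp6* was the member that fell with the drug in actB. Its GSK343 libraries held 3.57, 4.73 and 3.59 RPKM, against 4.91, 5.60 and 5.50 RPKM with DMSO. All GSK343 libraries lay below all DMSO libraries, with replicate 2 the highest of both treatments. *Dusp6* was 1.33-fold lower (log2 fold change -0.42 ± 0.103, adjusted p = 0.0247). This call was lost without DMSO replicate 2 (adjusted p = 0.0555) or 3 (0.0811) or GSK343 replicate 1 (0.0898) or 3 (0.0999).

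The other members gave no call in actB. *Dusp1* was at 4.76, 4.93 and 4.58 RPKM with GSK343 against 3.79, 4.80 and 3.27 RPKM with DMSO (log2 fold change 0.27, adjusted p = 0.159). Without DMSO replicate 2 it was 0.41 with an adjusted p of 0.0141, so that this library decides the call. *Spred1* was at 5.41, 5.78 and 4.96 RPKM with GSK343, all above the DMSO libraries (log2 fold change 0.19, adjusted p = 0.307). *Spred2* was at 3.13, 3.66 and 2.87 RPKM (log2 fold change -0.13, adjusted p = 0.39). For *Spry2* the GSK343 values were 1.62, 3.32 and 1.55 RPKM, with replicate 2 as high as under DMSO, and the log2 fold change was 0.028 (95% confidence interval -0.575 to 0.631). *Spry1* had 13, 45 and 31 reads with GSK343 against 12, 21 and 16 with DMSO.

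Replicates 2 of both actB groups stood apart from the other actB libraries, and marker sums differed between the treatments. The 8 myeloid markers summed to 24.5 to 32.0 RPM in actB with DMSO and 47.1 to 87.0 RPM with GSK343. Most of this was *Itgam*, at 4.27 ± 0.664 and 9.95 ± 3.12 RPKM (SD, n = 3), while the other 7 were under 1 RPKM on average and 2 of them had no reads in either treatment. The 6 plasmablast markers summed to 1412 to 1507 RPM with DMSO and 1571 to 1887 RPM with GSK343, with *Jchain* at 177 ± 19.4 and 231 ± 32.3 RPKM, and the 10 T and NK cell markers to 11.5 to 14.8 and 15.02 to 17.2 RPM. Among the T and NK cell markers *Lck* was at 4.08 ± 0.572 and 5.09 ± 0.251 RPKM. The other 9 were under 1 RPKM on average and did not all rise, with *Cd3d* and *Gzma* lower with GSK343. None of the myeloid, plasmablast and T and NK cell sums overlapped between the treatments, and their part in the changes of the phosphatase genes was not tested. With both replicates 2 left out, *Dusp1* was called in actB (log2 fold change 0.38, adjusted p = 0.0334) and *Dusp4* was not (adjusted p = 0.0528). The calls of *Dusp2*, *Dusp5*, *Dusp6* and *Dusp10* stayed. That fit was added after the data were seen, and its share of all genes called is not given.

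In Pb the drug libraries lay higher for most phosphatase genes, by amounts that rarely passed the test. Every GSK343 library lay above every DMSO library for 5 of the 9 genes tested (*Dusp1*, *Dusp4*, *Dusp5*, *Dusp6* and *Dusp10*), as for 18.8% of all genes. Only *Dusp4* was called by limma. Of all genes 12.9% were called, 7.90% higher. The median log2 fold change was 0.27 for the 9 genes and 0.00314 for all genes. The doubt over the cytokine of the drug libraries holds for all of these differences. Stage markers moved in the same libraries: *Sdc1* went from 29.7 ± 0.826 RPKM (SD, n = 3) with the vehicle to 55.3 ± 3.09 RPKM with the drug, *Pax5* was 29.1 ± 3.36 and 13.8 ± 4.65 RPKM, and the 7 B cell markers summed to 2833 to 2848 and 2442 to 2691 RPM. Not all plasmablast markers moved with *Sdc1*. *Irf4* was lower with the drug, at 372 ± 17.0 and 313 ± 11.6 RPKM, and *Prdm1* was at 121 ± 4.96 and 117 ± 5.88 RPKM. The means of *Xbp1*, *Jchain* and *Tnfrsf17* were higher with the drug. The sums of the 6 plasmablast markers overlapped (7854 to 8229 and 7874 to 8493 RPM), myeloid markers were at most 3.70 RPM, and the part of these markers in the results was not tested.

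*Dusp4* was at 71.2, 70.1 and 80.6 RPKM in Pb with GSK343 against 56.0, 55.7 and 62.5 RPKM with DMSO. These are its highest levels of all groups. It was 1.27-fold higher (log2 fold change 0.35 ± 0.0812, adjusted p = 0.0156; 0.00247 with the replicate number as a block). The call was lost without DMSO replicate 1 (adjusted p = 0.0618) or 2 (0.0532) or GSK343 replicate 3 (0.0742), with log2 fold changes of 0.32, 0.32 and 0.28.

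*Dusp5* was at 18.1, 23.8 and 21.7 RPKM with GSK343 against 14.3, 17.3 and 15.7 RPKM with DMSO. Replicate 2 was the highest and replicate 1 the lowest of both treatments. The log2 fold change was 0.42 ± 0.174 (adjusted p = 0.143). With the replicate number as a block the adjusted p was 0.00811, so that 2 of the 9 genes were called in that fit, where 24.3% of all genes were called.

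The remaining phosphatase genes gave values of like size in Pb. *Dusp1* was at 22.3, 20.7 and 24.3 RPKM with GSK343 against 16.8, 19.1 and 19.7 RPKM with DMSO (log2 fold change 0.27, adjusted p = 0.143). *Dusp2* was at 13.3, 16.5 and 17.2 RPKM against 10.4, 13.9 and 13.7 RPKM (0.30, adjusted p = 0.16). *Dusp6* was at 5.40, 5.63 and 6.15 RPKM against 4.91, 4.30 and 5.05 RPKM (0.26, adjusted p = 0.129).

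The lowest phosphatase gene in Pb, *Dusp10*, was at 1.84, 1.99 and 2.09 RPKM with GSK343 against 1.42, 1.77 and 1.74 RPKM with DMSO (log2 fold change 0.24, 95% confidence interval -0.0993 to 0.572, adjusted p = 0.369). *Spred1* was at 3.57, 2.87 and 3.91 RPKM (0.27, adjusted p = 0.13), with GSK343 replicate 2 inside the DMSO range; without that library the adjusted p was 0.0275. *Spred2* was at 3.22, 3.03 and 3.03 RPKM (0.049, adjusted p = 0.788), and *Spry2* at 0.357, 0.359 and 0.296 RPKM (-0.061, adjusted p = 0.926).

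*Spry1* had 27, 20 and 33 reads in Pb with GSK343 against 7, 0 and 6 with DMSO. The groups did not overlap, and the levels with GSK343, 0.383 to 0.651 RPKM, were about those of nB, 0.436 and 0.466 RPKM. With no filter on low values, a setting chosen after the data were seen, limma gave a log2 fold change of 1.17 ± 0.262 (adjusted p = 0.0211), in a fit where 4.64% of 18752 genes were called higher. By edgeR on the reads the log2 fold change was 2.55 (adjusted p = 0.014). The gene stayed under 1 RPKM in every library.

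**Figure D4:**
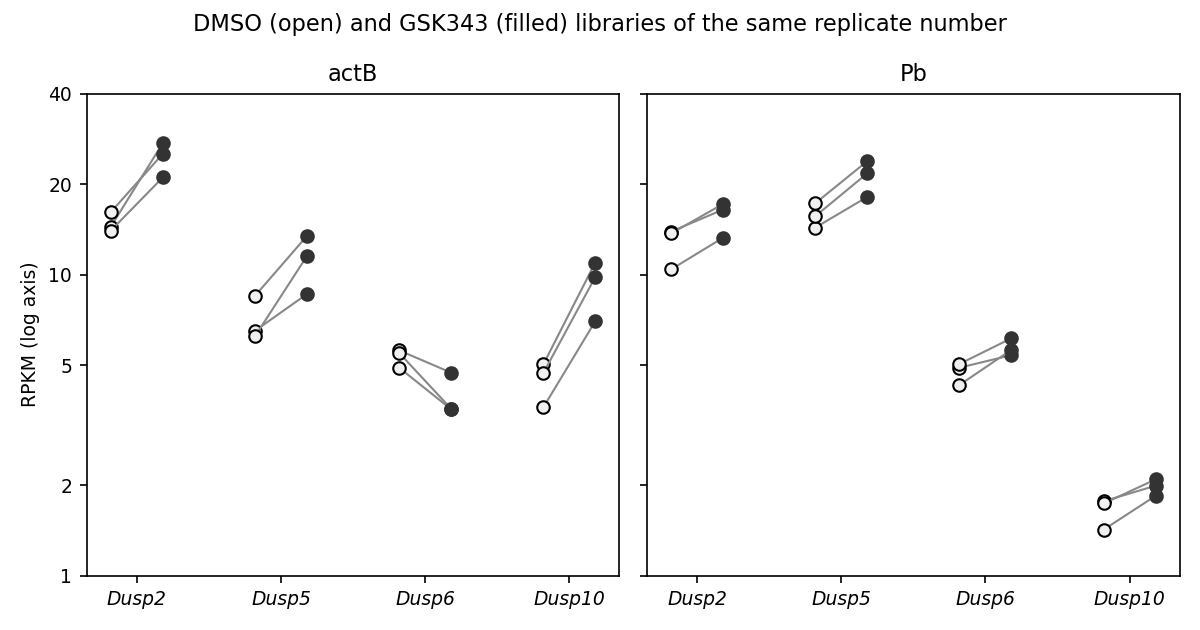
RPKM (log axis) of *Dusp2*, *Dusp5*, *Dusp6* and *Dusp10* with DMSO (open points) and GSK343 (filled points) in actB and in Pb; lines join libraries of the same replicate number, 3 per gene and cell type. In actB the lines of *Dusp6* go down, from 4.91 to 5.60 RPKM to 3.57 to 4.73 RPKM, and in Pb they go up.

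Whether the difference between treatments was unequal in Pb and actB was tested by an interaction term. None of the 9 genes was called by limma or edgeR, where limma called 28 of all genes (0.248%); 3 of the 9 had an unadjusted p under 0.05, as had 9.0% of all genes. *Dusp6* differed by 0.67 on the log2 scale (95% confidence interval 0.356 to 0.991, adjusted p = 0.109). *Dusp10* differed by -0.77 (95% confidence interval -1.24 to -0.293, adjusted p = 0.205), with the smaller change in Pb. *Dusp2* differed by -0.41 (95% confidence interval -0.807 to -0.00926, adjusted p = 0.535). The 2 effects of *Dusp1* and of *Dusp4* were nearly equal, with a difference of 0.004 (95% confidence interval -0.342 to 0.350) and 0.048 (-0.202 to 0.298).

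Kinase genes and ERK-responsive genes are given beside the share of all genes called with the drug. In actB, where this share was 10.4%, 2 of the 22 genes of the RAS-ERK cascade were called, both higher, among them *Mapk3*, from 22.1 ± 0.980 to 26.0 ± 1.48 RPKM (SD, n = 3; adjusted p = 0.0181). Of the 15 JNK and p38 genes 4 were higher, among them *Mapk8*, from 3.30 ± 0.375 to 4.33 ± 0.117 RPKM (adjusted p = 0.0381), and *Mapkapk2*, a kinase downstream of p38, from 52.8 ± 2.62 to 64.9 ± 3.01 RPKM (adjusted p = 0.0121). Of the 18 immediate-early and ERK-responsive genes *Phlda1* was called, at 2.32 ± 0.484 and 3.54 ± 0.442 RPKM (adjusted p = 0.0161). The medians of these lists were 0.0654, 0.0671 and 0.166, against 0.0284 for all genes.

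In Pb, where 12.9% of all genes were called, 3 of the 22 RAS-ERK genes were higher with GSK343 and 1 was lower. *Sos1*, an exchange factor for RAS, was the one that fell, from 5.85 ± 0.563 to 4.33 ± 0.434 RPKM (SD, n = 3; adjusted p = 0.0119), and *Rasgrp2* rose from 4.27 ± 0.483 to 5.53 ± 0.532 RPKM (adjusted p = 0.0116). Of the 15 JNK and p38 genes *Mapkapk2* was called, from 63.4 ± 4.16 to 74.7 ± 2.55 RPKM (adjusted p = 0.0276). Of the 18 immediate-early and ERK-responsive genes 2 were called, both higher. These were *Etv5*, an ETS factor induced by ERK, from 7.26 ± 0.194 to 10.1 ± 0.967 RPKM (adjusted p = 0.00692), and *Ier5*, from 24.6 ± 2.58 to 32.2 ± 2.13 RPKM (adjusted p = 0.0175). Of the 8 atypical phosphatases tested 2, *Dusp3* and *Dusp23*, were called higher in both cell types, beside 8.20% of all genes in actB and 7.90% in Pb. The log2 fold change of *Dusp23* was 0.38 in actB (adjusted p = 0.0189) and 0.33 in Pb (adjusted p = 0.0307), and that of *Dusp3* was 0.29 (adjusted p = 0.0447) and 0.27 (adjusted p = 0.0499).

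Patterns across the 14 libraries were compared by Pearson's r of log2(RPKM + 0.25), which here mostly reflects the 5 groups that the libraries share and is given as a description. Within the set, *Dusp2* and *Dusp6* were most alike (r = 0.900), then *Dusp10* and *Spry2* (0.839), and then *Dusp1* with *Dusp5* and with *Dusp6* (0.794 each). *Dusp4* ran against *Spry2* (-0.919) and *Dusp10* (-0.873). Among all genes tested, the 2 with the pattern most like that of *Dusp1* were the chemokine receptor gene *Cxcr4* (0.993) and the kinase gene *Tec* (0.990). For *Dusp4* they were *Lman2* and *Tm9sf1* (0.993 each), which encode proteins of the secretory pathway. Closest to *Dusp2* were *Slc12a7* (0.991) and *Crtc1* (0.990), to *Dusp6* *Bex6* (0.987) and *Ube2e2* (0.986), and to *Dusp10* *Diras2* and *Ahnak* (0.985 each). For *Dusp5* they were *Ppp2r5b* (0.963) and *Ctdsp2* (0.958), for *Spry2* *Wnk1* (0.989) and *Tnfrsf26* (0.987), for *Spred1* *Grn* (0.969) and *Ctnnd1* (0.967), and for *Spred2* *Ccdc173* (0.920) and *Gas2* (0.902).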

How the data were processed

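The authors mapped 50 bp paired-end reads of stranded poly(A) libraries (500 ng of RNA) to mm9 with TopHat2, counted reads over the exons of UCSC Known Gene models by Entrez gene with GenomicRanges, and deposited RPM (the file name says RPKM). Strand use in counting is not stated. All 15 columns sum to 1000000, and 100% of their values are whole reads (within 0.1 reads), which were recovered for edgeR. RPKM is RPM per kilobase of the deposited length. Rows with no symbol (92, at most 0.0905% of the reads) were left out, and no other column was left unused.

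The columns of nB replicates 1 and 2 gave a chi-square per degree of freedom of 0.00958, against at least 3.577 for any other pair of a group, and were averaged as 1 library. The 11299 genes reaching 1 RPKM in 3 or more of the 15 columns entered limma 3.58.1 (R 4.3.3) on log2(RPKM + 0.25) over 14 libraries, with 9 residual degrees of freedom, a variance trend, two-sided moderated tests and Benjamini-Hochberg adjustment over all genes tested. A gene was called at an adjusted p below 0.05. Scripts were tested on simulated data.

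Replicate numbers may pair the samples: deviations from group means correlated between cultured libraries of the same number (r from 0.158 to 0.502, 0.435 to 0.713 and 0.219 to 0.356 for numbers 1, 2 and 3), against -0.603 to 0.370 between numbers. Only number 2 lay above all values between numbers. Deviations from a mean of 3 add up to 0, which lowers the values between numbers, so that the contrast is partly built in. A fit with the number as a block was run beside the unblocked one; in it nB rests on replicate 3. Other settings were pseudocounts of 1 and 0.05, no filter (18752 genes), a minimum of 3 RPKM (9887 genes), quantile normalization, median scaling, 15 columns, edgeR 4.0.16 with TMM or RLE (11146 genes reaching 3 RPM in 3 columns), and each library left out. Leaving out both actB replicates 2 and testing *Spry1* with no filter were added after the data were seen.

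The 10 genes, the lists and the markers were chosen with earlier results of these data known. Named beside the 10 genes are, per list and comparison, the 2 called genes with the largest change and a group mean of 2 RPKM or more, the kinases *Mapk3*, *Mapk8*, *Mapk9* and *Mapk14*, and for each gene the 2 with the highest r. Results of some genes that this rule names are not reported here. Loci are 1-based in mm9 (GENCODE vM1), and promoter sequences are from RefSeq (GRCm38.p6), whose coordinates belong to another build.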

Additional observations from a re-analysis of the deposited data

Results flagged for a closer look

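*Dusp6* differed in sign between the 2 cell types with GSK343, with no test passed for the change in Pb (log2 fold change 0.26, adjusted p = 0.129) or for the difference of the effects. In actB every GSK343 library (3.57 to 4.73 RPKM) lay below every DMSO library (4.91 to 5.60 RPKM), and in Pb every GSK343 library (5.40 to 6.15 RPKM) lay above every DMSO library (4.30 to 5.05 RPKM). The difference of the effects was 0.67 on the log2 scale (limma, adjusted p = 0.109; 0.0742 with the replicate block, and 0.0708 by edgeR), so it was not called. It was called without actB GSK343 replicate 2 (0.80, adjusted p = 0.0306) and without both actB replicates 2 (0.76, adjusted p = 0.0457). For Pb with GSK343 the stimulation label gives Il6, where the treatment protocol and the study's methods give Il5; if it holds, the cytokine and the drug cannot be told apart.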

How the results depend on the processing

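In nB, actB and Pb with DMSO, the counts of members called (8, 7 and 6) stayed within 1.5 times under every setting run. With GSK343 in actB 5 of 9 were called, and 3 with no filter, with median scaling and by edgeR with RLE factors, where *Dusp4* and *Dusp5* were lost; leaving out libraries gave 2 to 5. In Pb 1 was called, and 2 with no filter, where the added gene is *Spry1*, and 2 with the replicate block, where it is *Dusp5*; leaving out libraries gave 0 to 2. Of the difference between cell types 0 were called, 1 (*Dusp6*) without both actB replicates 2, and 0 to 1 with libraries left out. The block changed no other call in the set, and all genes called with it rose from 1170 to 2374 in actB and from 1458 to 2751 in Pb. By edgeR with TMM 1243 and 1504 genes were called.

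Reversals touched only changes that were not called. The *Spry2* change with GSK343 in actB was -0.0057 with median scaling, -0.11 with quantile normalization, and -0.00068 and -0.0018 by edgeR with TMM and RLE, and *Spred2* in Pb was -0.0016 with quantile normalization. The cell type difference of *Dusp1* was -0.0065 at a pseudocount of 0.05 and -0.11 without both actB replicates 2. With libraries left out, some values of the following results reversed, and the ranges given cover all of these fits. They were -0.051 to 0.14 for *Spred1* in Pb against nB. For *Spry2* with GSK343 they were -0.29 to 0.34 in actB and -0.14 to 0.029 in Pb. For the difference between cell types they were -0.013 to 0.20 for *Spred1*, -0.14 to 0.12 for *Dusp1*, -0.40 to 0.23 for *Spry2* and -0.015 to 0.10 for *Dusp4*. Causes were not tested. At 0 to 45 reads, *Spry1* limits any statement on its size of change.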
